A study of Mus musculus with 12 samples.

Results

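The kidneys described here came from mouse embryos homozygous for frameshift alleles of Hoxa9, Hoxa10 and Hoxa11 and heterozygous for frameshift alleles of Hoxc9, Hoxc10 and Hoxc11 (Hoxa-/- Hoxc+/-, written AkCh), and they were compared with wild type (Wt) kidneys. Libraries were chosen by their labels: 3 AkCh libraries (20, 31 and 33) and 3 Wt libraries (30, 37 and 55), which is 6 of the 12 in the series. All 6 are RNA of whole kidneys taken at E18.5, from mice of a mixed background, and were sequenced in the same run with paired-end reads of 75 bases. Each mutated gene carries a frameshift change in its first exon. The other libraries are 3 from the same run labelled Hoxa-/- Hoxc-/- (AkCk: 24, 27 and 29) and 3 from another run labelled Hoxa+/- Hoxc-/- (AhCk), which enter the scaling of levels and the alternative fits of 12 libraries. The labels of AkCk count Hoxa11 among the homozygous genes, while the study's text describes its sequenced Hoxa and Hoxc mutant kidneys as heterozygous or wild type at Hoxa11, so the Hoxa11 genotype of AkCk is uncertain. AkCk values are given beside the others without a test, because that comparison would share the Wt libraries. Nothing states whether libraries of a group are littermates or separate litters, so p-values measure the spread between these samples. Reads counted on genes were 37190058, 42353534 and 39304131 in Wt 30, 37 and 55, and 28616878, 41185017 and 38337132 in AkCh 20, 31 and 33. Levels are given as CPM, read counts scaled to the same effective library size (TMM), and a group's values are listed in these orders of libraries. The libraries carry kidney markers of each main segment, whose levels are given below by list.

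Hox genes encode homeodomain transcription factors that pattern the body axis and its organs. Genes of the 9, 10 and 11 paralog groups are expressed together in the metanephric mesenchyme and stroma, the tissues from which nephrons and the kidney's connective tissue form. Because flanking and paralogous Hox genes can stand in for each other, alleles were combined across clusters to ask what the group does in the kidney, and the AkCh genotype keeps a wild type copy of each Hoxc gene and all Hoxd genes.

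Library 20 stood apart from the rest and is left out of a second version of each comparison. It had the lowest depth of the 6, 17682 genes detected against 17968 to 18156 in the other 5, and 19.6% of its counts on its 100 most abundant genes, against 13.99% to 15.3%. Its distance to the other 8 libraries of its run (root mean square log2 CPM difference) was 0.688 to 1.04, while the 28 pairs among those 8 lay at 0.343 to 0.753. The distances between Wt libraries were 0.343 to 0.478, and those between Wt and AkCh 31 or 33 were 0.405 to 0.563. Short transcripts were higher and long ones lower in library 20: over 10655 genes in 5 equal length classes, the median log2 difference from Wt went from 0.40 in the shortest class to -0.34 in the longest. The same medians were -0.10 and 0.13 in AkCh 31, -0.07 and 0.09 in AkCh 33. With each Wt library set against the other Wt libraries, they were -0.13 and 0.11 in Wt 30, 0.07 and -0.08 in Wt 37, and 0.05 and -0.04 in Wt 55. The trend with length in library 20 thus ran the opposite way to that in AkCh 31, AkCh 33 and Wt 30, and the same way as the smaller trends in Wt 37 and 55. A fit corrected for transcript length and GC content, added after the data were seen, called 0 genes with all 6 libraries (405 at an unadjusted p under 0.05) and 14 without library 20 (edgeR).

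**Figure D1:**
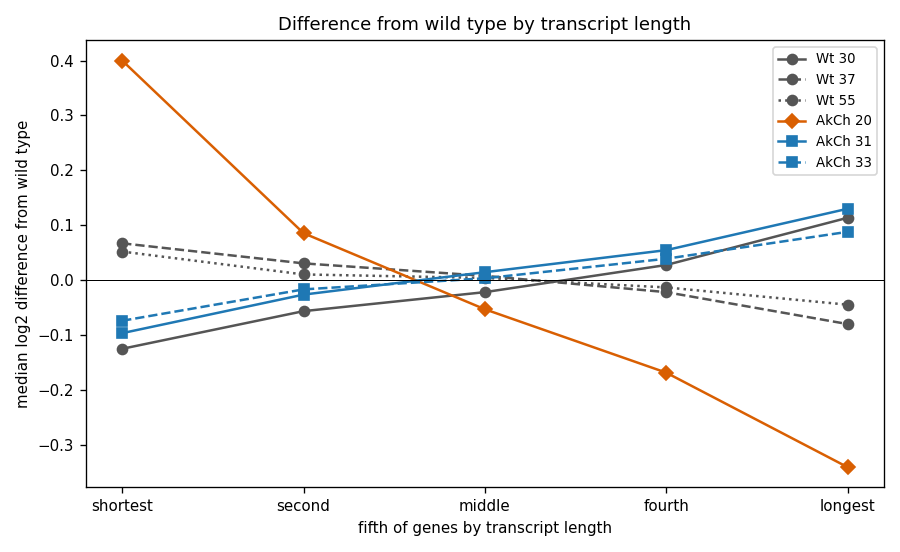
Median log2 difference from wild type (vertical axis) over genes grouped into 5 classes of equal size by transcript length (horizontal axis), 1 line per library; each Wt library is compared with the other Wt libraries. Library 20 (orange diamonds) goes from 0.40 to -0.34, while the other 5 libraries stay between -0.13 and 0.13.

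The 10 genes furthest below AkCh 31 and 33 in library 20 included Xist and 2 of the proximal tubule list, Fbp1 and Cldn2. Fbp1, the fructose bisphosphatase of gluconeogenesis, had 20.2 CPM in library 20 against 312 and 472 in 31 and 33. Cldn2, a claudin that makes tight junctions permeable to cations, had 20.7 against 256 and 381 CPM. Slc5a12 (a lactate transporter) had 3.21 against 39.2 and 100.3 CPM. Rdh19, Ugt1a2, Mgat5, Lrrc19, Clcn5 and Itgb8 were the others that were lower in library 20. Among the 10 genes furthest above were the Y-linked Ddx3y, Eif2s3y, Uty and Kdm5d, and Hba-a2, an alpha globin gene with 529 against 1.55 and 6.58 CPM. Hba-a2 shares 81% of its 75-base windows with Hba-a1, so its count is uncertain. Esp38 had 11449.6 against 1637 and 2004 CPM, and Gm12992, Pcp4 and B3gnt8 were also higher. Ostf1 entered this set through library 31: it had 91.5, 0.653 and 49.5 CPM in the 3 AkCh libraries and 46.04, 45.4 and 44.3 in Wt, so it was low in 31 alone.

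The libraries also differed in sex. Xist, the RNA that silences an X chromosome in females, had 3, 6 and 2 counts in Wt and 1, 7859 and 9605 in AkCh. Ddx3y, a Y-linked RNA helicase, had 3529, 3683 and 3664 counts in Wt and 2050, 0 and 3 in AkCh. All Wt libraries and AkCh 20 were thus Y-positive and low in Xist, while AkCh 31 and 33 were the reverse. Without library 20, sex and genotype cannot be told apart.

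Transcripts of all 6 targeted genes were detected in every library, and none of the 6 passed the test in either fit (edgeR). Hoxa10 had 125, 152 and 164 CPM in Wt and 152, 104 and 107 in AkCh. AkCh 31 and 33 lay below all Wt libraries and library 20 lay among them. Hoxa9 had 24.3, 24.4 and 26.4 CPM in Wt and 40.4, 26.8 and 27.05 in AkCh, and was higher in each AkCh library than in each Wt library, by little in 31 and 33. Hoxa11 had 44.1, 52.8 and 59.7 CPM in Wt and 42.8, 51.99 and 52.1 in AkCh, and its groups overlapped. For the Hoxc genes, present here as heterozygous alleles, Hoxc10 had 50.1, 58.9 and 66.9 CPM in Wt and 119.6, 45.5 and 41.5 in AkCh. Library 20 was the highest of the 6, and AkCh 31 and 33 were below all Wt libraries. Hoxc9 had 11.3, 11.7 and 15.6 CPM in Wt and 32.4, 11.7 and 12.6 in AkCh. Hoxc11 had 1.56, 1.60 and 1.83 CPM in Wt and 2.91, 1.57 and 1.32 in AkCh. Library 20 was again the highest for both, and the groups overlapped. In AkCk, Hoxa10 had 101, 104 and 111 CPM and Hoxc10 37.9, 29.1 and 35.7. Counts over a whole gene do not check a frameshift change, so these levels are no check of the genotype labels. The study reports that each Hoxc allele also lost coding bases of its first exon, most in Hoxc10. How far that loss bears on the counts was not tested. The log2 fold changes with all 6 libraries were 0.33 for Hoxa9 (standard error 0.19), -0.28 for Hoxa10 (0.19) and 0.24 for Hoxc10 (0.43), each with an adjusted p of 1.00 (edgeR quasi-likelihood test, Benjamini-Hochberg). Without library 20, Hoxa10 was at -0.49 (0.12) and Hoxc10 at -0.44 (0.13), each with an adjusted p of 0.431 by the same test.

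For Hox genes that were not targeted, the balance of higher and lower depended on library 20. Of the 4 untargeted paralogs (Hoxb9, Hoxd9, Hoxd10 and Hoxd11), 4 had a positive fold change with all 6 libraries (median log2 0.26) and 0 of 4 without library 20 (median -0.17). Hoxb9 had 68.3, 81.6 and 78.002 CPM in Wt and 190.0, 60.7 and 69.3 in AkCh. Library 20 was far above all others, AkCh 31 was below all Wt libraries and AkCh 33 was within their range. Of 29 other Hox genes, 23 had enough counts to test with all 6 libraries, and 17 were higher, 6 lower, with 0 at an unadjusted p under 0.05. Without library 20, 7 were higher and 17 lower of 24, and 5 of the lower ones had such a p (11.4% of all genes). In both fits 2 were higher without overlap, Hoxa4 and Hoxc6 (3.5% and 16.3% of all genes), and 5 were lower without overlap once library 20 was left out (16.5%). Hoxa4 had 2.68, 3.35 and 2.94 CPM in Wt and 6.77, 4.04 and 3.48 in AkCh (log2 fold change 0.67 with and 0.32 without library 20). Hoxc6 had 7.87, 10.4 and 11.7 CPM in Wt and 27.1, 12.4 and 12.5 in AkCh (0.80 and 0.31). Library 20 was the highest for both. Hoxd4 had 7.71, 9.25 and 10.9 CPM in Wt and 8.26, 5.57 and 5.53 in AkCh. Hoxd3 had 15.7, 18.2 and 22.4 CPM in Wt and 19.5, 10.99 and 11.9 in AkCh. Both were lower in AkCh 31 and 33 than in any Wt library, and within the Wt range in library 20. In AkCk, Hoxd4 was at 2.33, 2.27 and 3.07 CPM and Hoxd3 at 5.61, 5.75 and 6.42. The adjusted p without library 20 was 0.431 for Hoxd4 and 0.431 for Hoxd3 (edgeR).

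The comparison of AkCh with Wt asks what loss of the Hoxa genes, with reduced Hoxc, does to gene expression in the kidney, and over all genes few differences exceeded the spread between libraries. With all 6 libraries, edgeR's quasi-likelihood test called 0 of 15789 genes (0%), 360 had an unadjusted p under 0.05 (2.28%), and DESeq2 called 22. Limma called 29 with library quality weights and 1 from the log2 values as deposited. The Audic-Claverie test, which has no replicate term, called 192 at a fold change above 2. A fit with Xist as a covariate, in which library 20 is the only AkCh library low in Xist, called 4790. The 3 AkCh libraries were all above the 3 Wt libraries for 553 genes (3.5%) and all below for 762 (4.83%). Without library 20, edgeR called 8 of 15967 genes (0.0501%), 1813 had an unadjusted p under 0.05 (11.4%), and AkCh 31 and 33 were both above all Wt libraries for 2599 genes (16.3%) and both below for 2638 (16.5%). Of the genes tested in both fits, 299 had an unadjusted p under 0.05 in each, which is 299 of 360 with library 20 and 299 of 1791 without it. Without library 20, DESeq2 called 132 genes, and limma called 1286 with library quality weights and 9 from the log2 values as deposited. The fit with Xist as a covariate called 0. The 8 genes that edgeR called included Xist, Mettl7a2 and AB099516, which rose. The others were the Y-linked Eif2s3y, Ddx3y, Kdm5d and Uty and the actinin gene Actn3, which fell. The count without library 20 depended on Wt 30: leaving that library out as well gave 2787 called genes, 1874 higher and 913 lower, and leaving out any other library gave 7 to 9. From the 6 libraries, leaving out any library other than 20 gave 0 called genes.

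**Figure D2:**
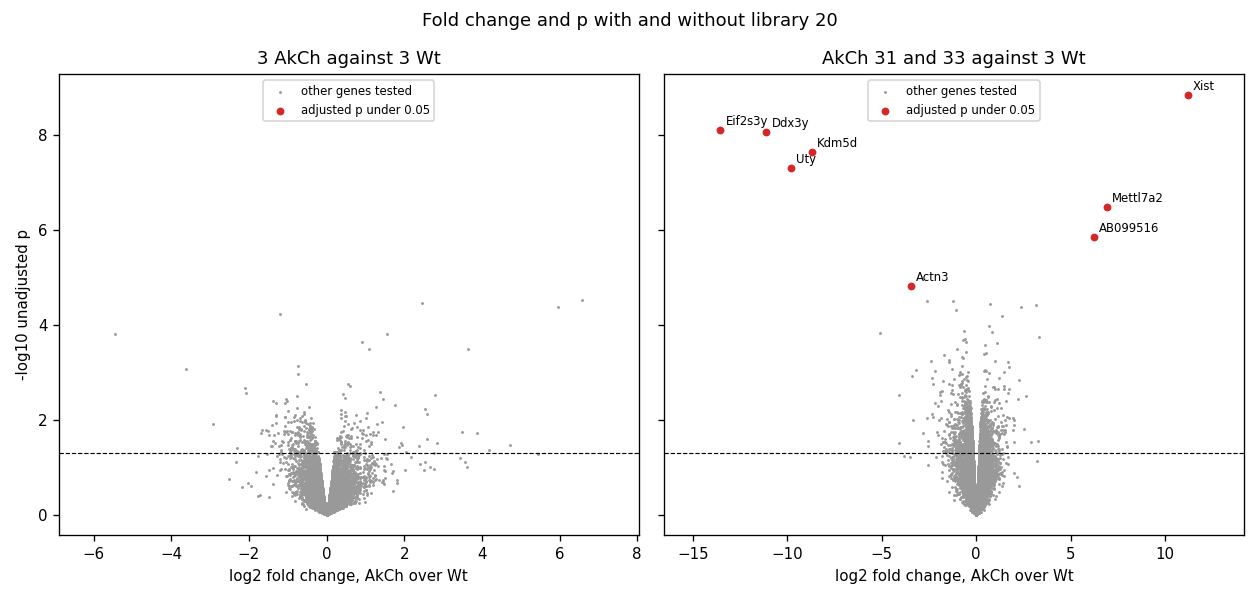
Each point is a gene, with the log2 fold change of AkCh over Wt on the horizontal axis and -log10 of the unadjusted edgeR p on the vertical axis, for all 6 libraries (left) and without library 20 (right); the dashed line marks p of 0.05. There are 0 called genes on the left and 8, in red and named, on the right.

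Genes described next were named for small p-values among those whose groups do not overlap, so that their direction in every AkCh library follows from the choice. Ogg1, the glycosylase that removes 8-oxoguanine from DNA, had 10.7, 10.6 and 11.2 CPM in Wt and 4.67, 4.84 and 4.61 in AkCh. The 3 AkCh libraries lay close together below all Wt libraries, and AkCk stood between the groups at 7.29, 6.59 and 7.90 CPM. Its log2 fold change was -1.20 (standard error 0.13) with all 6 libraries and -1.20 (0.12) without library 20, at adjusted p of 0.240 and 0.0511 (edgeR). Slc7a11, the cystine importer that feeds glutathione synthesis, had 2.83, 2.45 and 2.38 CPM in Wt and 8.92, 6.66 and 6.82 in AkCh. All AkCh libraries were above all Wt libraries, AkCk had 17.1, 15.5 and 8.10 CPM, and the adjusted p was 0.422 with and 0.0695 without library 20 (edgeR, log2 fold change 1.55 and 1.39). Over the alternative settings with 6 libraries, Ogg1 passed the threshold in 4 of 19 (adjusted p from 1.83e-14 to 1.00) and Slc7a11 in 3 of 19 (5.14e-09 to 1.00). Without library 20, Ogg1 passed in 11 of 18 (1.11e-11 to 1.00) and Slc7a11 in 4 of 18 (1.31e-08 to 1.00).

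Among other genes higher in AkCh by the smallest p-values, Tgm2, a transglutaminase that crosslinks matrix proteins, had 74.8, 67.5 and 64.04 CPM in Wt and 105, 93.9 and 100.5 in AkCh. Akr1c18, a progesterone-inactivating reductase, had 0.795, 0.486 and 0.792 CPM in Wt and 1.53, 1.77 and 2.11 in AkCh. Library 20 lay with AkCh 31 and 33 for both. Gm6682 had 23, 36 and 32 counts in Wt and 114, 189 and 127 in AkCh, a ratio of 5.44 (95% counting interval 4.33 to 6.90), but 47.1% of its 75-base windows occur in another gene. Gm14150 (0.106, 0.231 and 0.396 CPM in Wt, 4.44, 2.13 and 2.82 in AkCh) shares 63% of its windows, most with Tuba1b. The alpha tubulin gene Tuba1c (49.8, 52.4 and 52.3 CPM in Wt, 88.3, 73.8 and 70.4 in AkCh) shares 56.7%. Tuba1c also lies -3.94 Mb from Hoxc10, within the 10 Mb window near a targeted cluster that is described below. Since reads aligning to several places were removed, the levels of these 3 are uncertain. On the lower side, Rsad2, an antiviral protein induced by interferon, had 37.3, 39.03 and 37.3 CPM in Wt and 19.97, 23.02 and 25.5 in AkCh. Rnf213, a ubiquitin ligase, had 35.2, 35.9 and 33.3 CPM in Wt and 25.6, 23.3 and 23.3 in AkCh. Lyz2, the lysozyme of myeloid cells, had 10.01, 9.60 and 10.2 CPM in Wt and 6.12, 5.64 and 6.11 in AkCh. None of the 3 passed the test: the adjusted p was 1.00 for each with 6 libraries, and the lowest without library 20 was 0.126, for Rsad2 (edgeR). In AkCk, Rsad2 stood at 37.7, 41.8 and 23.8 CPM and Lyz2 at 18.01, 18.1 and 9.66, so that AkCk libraries overlapped with Wt for Rsad2 and were mostly above it for Lyz2. Nkd2, a Wnt antagonist, Tcirg1, a subunit of the vacuolar proton pump, Xlr3b, Fam184b, Fam227a and 9130008F23Rik were the other genes on this side, at log2 fold changes of -2.06 (Xlr3b) to -0.45 (Tcirg1). Xlr3b shares 43.4% of its windows with other genes.

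**Figure D3:**
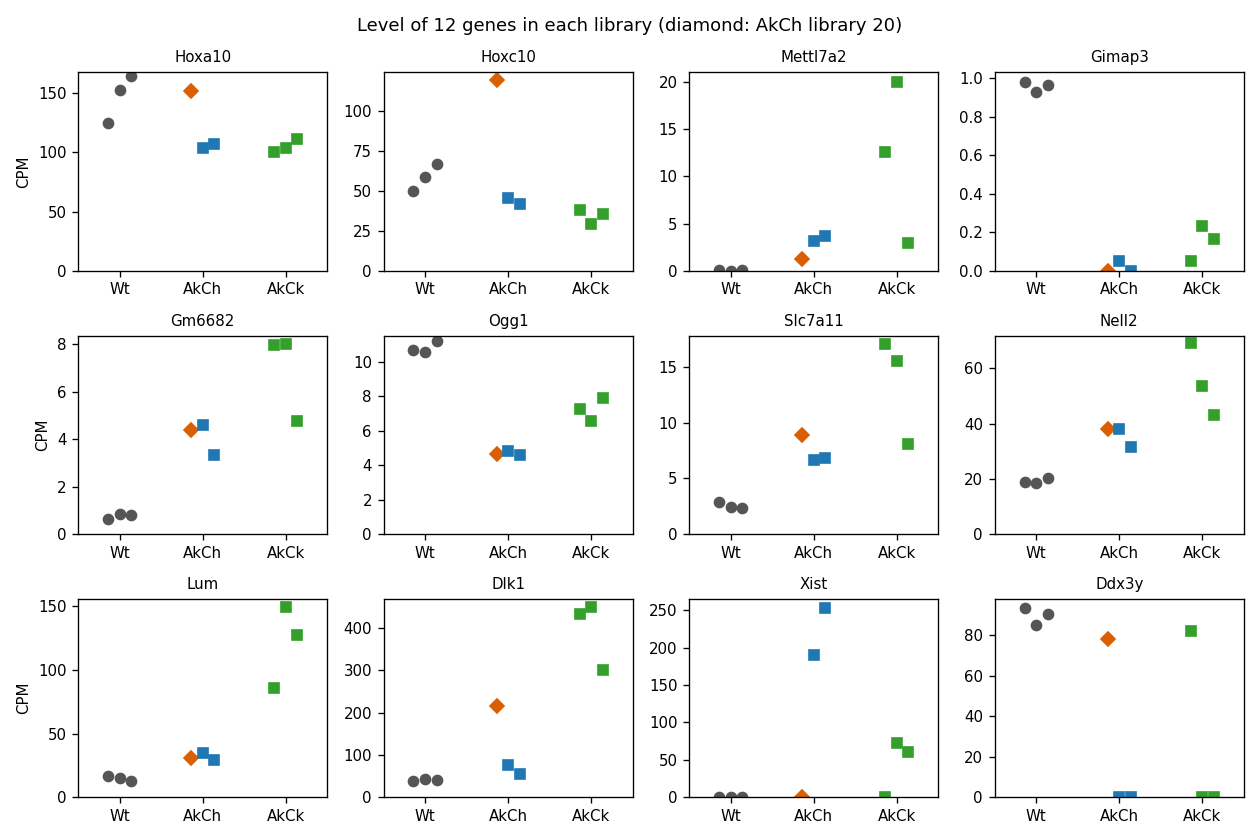
Level of 12 genes in CPM (vertical axes, from 0) in each Wt, AkCh and AkCk library, 1 point per library, with library 20 as an orange diamond. Ogg1 and Gimap3 are lower and Slc7a11, Nell2 and Lum higher in all 3 AkCh libraries than in any Wt library, while Xist and Ddx3y separate library 20 from AkCh 31 and 33.

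Near the targeted clusters, a larger share of genes did not overlap between groups than over the genome as a whole, and the 3 largest fitted fold changes among the genes tested with 6 libraries (Mettl7a2, AB099516 and Gimap3) lay there. Xist did not pass the filter on low counts in that fit and is not in this ranking. Of 116 tested genes within 10 Mb of Hoxa10 on chromosome 6, 10 had an unadjusted p under 0.05 (8.62%), against 2.28% of all genes, and 20 did not overlap between groups (17.2%). Near Hoxc10 on chromosome 15 these were 5 (3.16%) and 22 (13.9%) of 158. Over all genes, 8.33% did not overlap in either direction. Without library 20, the shares without overlap were 40.5% and 38.4%, beside 32.8% of all genes, and 2 genes near Hoxc10 were called. The mice were of a mixed background, so strain alleles linked to a targeted cluster and the targeted alleles themselves cannot be told apart.

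Mettl7a2 and AB099516 are annotated with the same start, at -2.61 Mb from Hoxc10 (negative towards the start of the chromosome), in a cluster of methyltransferase-like genes. Mettl7a2 had 1, 1 and 1 counts in Wt and 32, 131 and 138 in AkCh, a ratio of 116 (95% counting interval 39.2 to 563). AB099516 had 1, 3 and 1 counts in Wt and 36, 130 and 138 in AkCh, a ratio of 70.02 (29.7 to 217). Every AkCh library was above every Wt library for both, library 20 the lowest of the AkCh libraries, and the counts of the 2 genes differed by at most 4 in each of the 6 libraries. As they overlap they may share reads, and the level of each is uncertain. Mettl7a3 had 0, 0 and 0 counts in Wt and 6, 19 and 7 in AkCh. That is 12.3-fold higher against a floor of 3 counts over the Wt group. The lower 95% limit from counting in both groups is 9.43. Mettl7a1, the abundant member, had 35.6, 30.3 and 28.98 CPM in Wt and 30.7, 36.96 and 43.1 in AkCh, and its groups overlapped with library 20 and did not without it. Mettl7a2 passed the test without library 20 (adjusted p = 0.000904, edgeR) and had an adjusted p of 0.220 with it, past the threshold in 4 of 19 alternative settings (2.40e-08 to 1.00). Without library 20 it passed in 13 of 17 (7.22e-12 to 1.00), and the call was lost in the fits of 9 and of 12 libraries. It was also lost with Xist as a covariate, there and in the fit of 12 libraries (0 called genes in each). In AkCk, Mettl7a2 stood at 12.6, 19.997 and 2.96 CPM. Intervals and floors cover counting error only.

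These genes are near copies, which limits how their reads can be assigned: of the 75-base windows of Mettl7a2, 58.5% occur in another gene, most in Mettl7a3 (33.3%), and of those of Mettl7a1, 12.9%. The start regions show the likeness. The RefSeq sequences of the start regions of Mettl7a1 (chr15:100304567-100304866, plus strand, GRCm38.p6) and Mettl7a2 (chr15:100352950-100353249, plus strand) are given with their longest shared stretch, of 40 bases, in capitals. The window of Mettl7a2 opens 250 bases before the start of the gene, and that of Mettl7a1 opens after the first annotated base of the gene, at 100304145.
Mettl7a1 start region: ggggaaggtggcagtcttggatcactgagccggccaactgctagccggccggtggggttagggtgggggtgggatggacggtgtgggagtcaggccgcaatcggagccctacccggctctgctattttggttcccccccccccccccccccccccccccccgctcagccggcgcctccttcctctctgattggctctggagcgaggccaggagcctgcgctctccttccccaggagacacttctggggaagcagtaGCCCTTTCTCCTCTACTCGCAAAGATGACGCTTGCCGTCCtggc
Mettl7a2 start region: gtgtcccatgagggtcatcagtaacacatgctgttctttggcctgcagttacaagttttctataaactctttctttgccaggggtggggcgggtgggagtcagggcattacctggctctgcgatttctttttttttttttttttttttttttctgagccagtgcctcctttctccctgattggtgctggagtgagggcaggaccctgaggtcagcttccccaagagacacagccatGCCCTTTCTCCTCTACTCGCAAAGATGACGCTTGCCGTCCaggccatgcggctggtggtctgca

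Nell2, which encodes a secreted glycoprotein with EGF repeats, lies -7.75 Mb from Hoxc10 and had 18.6, 18.6 and 20.3 CPM in Wt and 38.03, 37.9 and 31.4 in AkCh. All AkCh libraries were higher, library 20 included, which follows from the choice of Nell2 for a small p without overlap. EdgeR gave an adjusted p of 0.537 at log2 0.90 with a standard error of 0.12. On chromosome 6, Gimap3, a GTPase of lymphocytes that was named after its values were seen, lies -3.47 Mb from Hoxa10 and had 37, 40 and 39 counts in Wt and 0, 2 and 0 in AkCh. That is a ratio of 0.0199 (95% counting interval 0.00238 to 0.0734), and limma, applied to the deposited log2 values, called this gene alone, while edgeR gave an adjusted p of 0.422 with 6 libraries and 0.126 without library 20. Over the alternative settings it was 0.000369 to 1.00 with 6 libraries. Other Gimap genes nearby, also looked at after values were seen, were lower by less or overlapped. Gimap4 had 102, 114.8 and 113 CPM in Wt and 93.7, 78.2 and 73.8 in AkCh, lower in each AkCh library (log2 -0.42), as were Gimap8 (-0.32) and Gimap9 (-0.30). Gimap6 (-0.22) did not overlap once library 20 was left out, and Gimap1 (-0.06) overlapped in both fits. Gimap5, with which Gimap3 shares 4.01% of its windows, had 7.95, 9.09 and 10.1 CPM in Wt and 7.58, 7.77 and 9.19 in AkCh, with overlap. Ano2, a calcium-activated chloride channel gene on the same chromosome, also named after its values were seen, had 2.28, 1.16 and 1.53 CPM in Wt and 0.0765, 0.0484 and 0.263 in AkCh, lower in every AkCh library (adjusted p = 1.00, edgeR). Ogg1 is on chromosome 6 too, outside the 10 Mb window. By chromosome, 4.92% of genes on 6 and 3.32% of those on 15 had an unadjusted p under 0.05 with all 6 libraries, and the other autosomes and the X gave 0.905% to 3.67%.

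**Figure D4:**
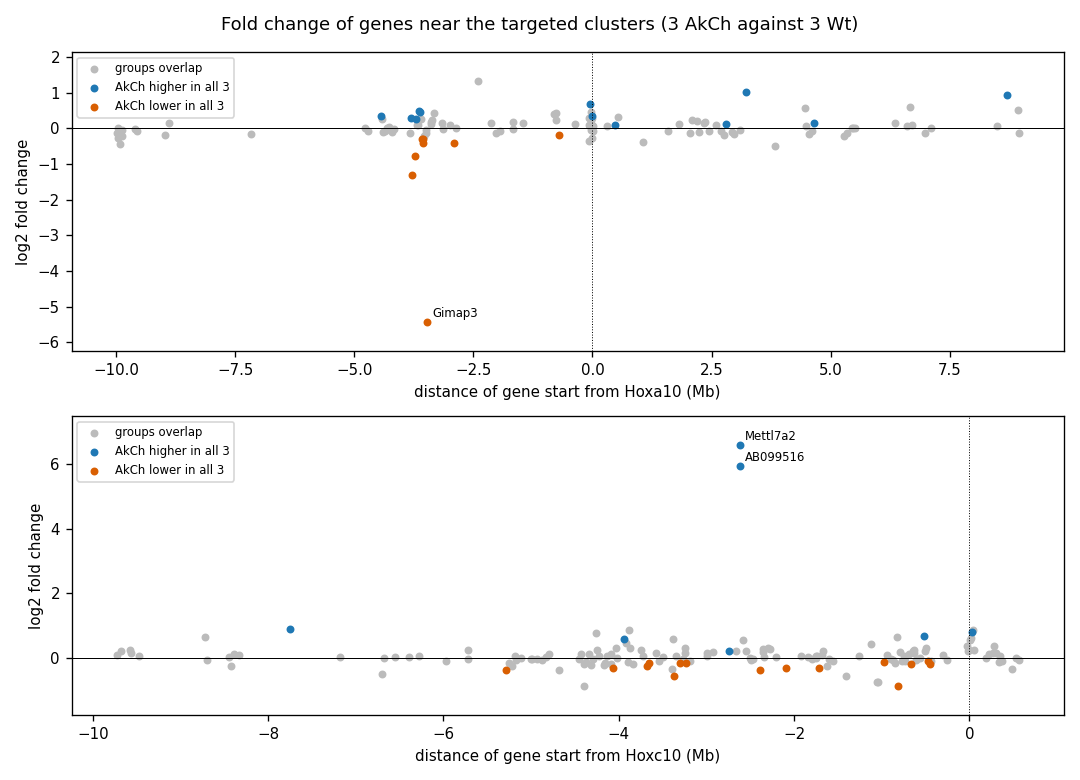
Log2 fold change of AkCh over Wt (vertical axes, all 6 libraries) of each tested gene by the distance of its start from Hoxa10 (top) or Hoxc10 (bottom) in Mb, within 10 Mb; colour marks genes whose groups do not overlap. Gimap3 and the pair Mettl7a2 and AB099516 stand furthest from 0, and the median is 0.01 near Hoxa10 and 0.04 near Hoxc10.

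More extracellular matrix genes were higher than lower in AkCh, in both fits. Lum, the collagen-binding proteoglycan lumican, had 16.9, 14.8 and 12.3 CPM in Wt and 30.5, 34.9 and 28.8 in AkCh. All 3 AkCh libraries were above all Wt libraries, and AkCk stood higher still at 85.98, 149 and 127 CPM. The log2 fold change of Lum was 1.10 (standard error 0.16) with all 6 libraries and 1.11 (0.16) without library 20, at adjusted p of 0.580 and 0.166 (edgeR), so it did not pass the test either way; with 6 libraries it passed in 3 of 19 alternative settings (2.91e-06 to 1.00). Of 30 matrix genes, 24 were higher with all 6 libraries, 7 of them at an unadjusted p under 0.05, and 10 were higher without overlap; the median log2 fold change was 0.17, against 0.03 over all genes tested. Over all genes, 2.28% had such a p and 3.5% were higher without overlap. Without library 20, 26 were higher, 13 at such a p and 17 without overlap, with a median of 0.20 against -0.01. In that fit the shares over all genes were 11.4% and 16.3%. None was called. Most members, Lum among them, were picked by the study as higher in its mutant libraries, so the direction of the list is not independent evidence.

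Dcn (decorin, a regulator of collagen fibrils) had 105, 95.2 and 89.5 CPM in Wt and 143, 142 and 116 in AkCh, with all AkCh libraries above Wt. Postn (periostin) had 119, 112 and 119 CPM in Wt and 274, 185 and 144 in AkCh. Matn2, a filament-forming matrilin, had 55.4, 58.9 and 58.97 CPM in Wt and 94.2, 81.2 and 69.4 in AkCh. Both were higher in every AkCh library, most in library 20. The fibrillar collagen gene Col1a1 had 804, 829 and 856 CPM in Wt and 1414, 1293 and 813 in AkCh, where library 33 was within the Wt range. Col3a1 had 1586, 1621 and 1433 CPM in Wt and 1727, 2181 and 1727 in AkCh, higher in each. Lox, the enzyme that crosslinks collagen and elastin, had 127, 114.9 and 96.9 CPM in Wt and 77.6, 161 and 148 in AkCh, with library 20 below Wt and 31 and 33 above. Col4a1, of basement membranes, split the same way, at 2612, 2428 and 2234 CPM in Wt and 1526, 2751 and 2704 in AkCh. Summed over the list, levels were 12282, 12246 and 11637 CPM in Wt, 12275, 14918 and 12553 in AkCh and 23568, 28574 and 24728 in AkCk. In this sum, library 20 was within the Wt range, AkCh 31 and 33 were above it, and AkCk was far above both groups.

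Stromal genes were higher or lower with none called in either fit (edgeR). Of 20 renal stroma genes, 17 were higher with all 6 libraries (4 at an unadjusted p under 0.05) and 3 lower (1), and without library 20, 11 were higher (5) and 9 lower (4). Such a p was found for 2.28% and 11.4% of all genes in these fits. Ntn1 (netrin, a guidance cue) had 98.2, 86.3 and 94.4 CPM in Wt and 135, 119.8 and 105 in AkCh. Cldn11, a tight junction claudin, had 39.5, 57.9 and 48.6 CPM in Wt and 59.5, 65.1 and 67.97 in AkCh. Both were higher in each AkCh library, Twist2 likewise, while Lef1, a transcription factor of Wnt signalling, was lower in each (13.4, 18.4 and 19.2 against 13.2, 12.03 and 12.2 CPM). Foxd1, the marker of stromal progenitors, had 21.2, 25.1 and 26.5 CPM in Wt and 66.96, 34.9 and 25.5 in AkCh, above the Wt range in 20 and 31 and within it in 33. For the 10 smooth muscle and renin genes, the median was log2 0.01 with all 6 libraries and -0.14 without library 20. In the second fit 4 were lower and 1 higher at an unadjusted p under 0.05, beside 11.4% of all genes in either direction. Mgp, an inhibitor of calcification, had 68.5, 67.7 and 72.6 CPM in Wt and 98.1, 38.4 and 46.6 in AkCh, highest in library 20 and below all Wt libraries in 31 and 33.

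Several markers of nephron progenitors, Six2 among them, were highest in library 20, while others were not. In bulk RNA, fewer cells of a type and less RNA per cell cannot be told apart. Six2, the regulator that maintains nephron progenitors, had 67.1, 84.1 and 105 CPM in Wt and 162, 76.97 and 69.6 in AkCh, where library 20 was above and 31 and 33 within the Wt range. Cited1, a marker of the same cells, had 35.9, 49.3 and 47.02 CPM in Wt and 65.9, 36.5 and 30.05 in AkCh, where 20 was above, 31 within and 33 below the Wt range. Gdnf, the signal for ureteric branching, had 29.7, 35.3 and 39.8 CPM in Wt and 65.01, 31.97 and 26.7 in AkCh, placed as for Cited1. In AkCk, Six2 was at 28.02, 13.2 and 58.3 CPM and Cited1 at 11.6, 10.3 and 26.5, below all Wt libraries. Of 20 cap mesenchyme genes, 13 were higher and 7 lower with all 6 libraries (median log2 0.06, 1 at an unadjusted p under 0.05), and 3 and 17 without library 20 (median -0.21, 6, beside 11.4% of all genes). The sign of the median rests on library 20. With all 6 libraries 2 were lower without overlap, library 20 included, and none was higher without overlap. Of all genes in that fit, 2.28% had an unadjusted p under 0.05, 4.83% were lower without overlap and 3.5% higher. Dpf3, a subunit of a chromatin remodelling complex, had 5.83, 5.11 and 4.75 CPM in Wt and 3.10, 4.41 and 4.58 in AkCh, lower in each AkCh library. Among the 6 of the second fit, all lower, Meox1 had 15.02, 19.4 and 19.03 CPM in Wt and 34.5, 10.6 and 12.4 in AkCh. Tmem100 had 17.8, 21.4 and 28.4 CPM in Wt and 43.5, 14.4 and 13.7 in AkCh. Both were above the Wt range in library 20 and below it in 31 and 33.

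The ureteric tip list, 16 genes, also depended on library 20: 7 were lower with all 6 libraries and 14 without library 20, 4 of them at an unadjusted p under 0.05, beside 11.4% of all genes (medians 0.02 and -0.12). Ret, the receptor for Gdnf, had 36.4, 39.1 and 41.03 CPM in Wt and 41.6, 29.99 and 28.5 in AkCh. AkCh 31 and 33 were below all Wt libraries and library 20 above them, and AkCk was lower still at 9.62, 7.38 and 17.3 CPM. Adamts18, a secreted protease of the tip, was lower in each AkCh library, at 5.11, 4.65 and 4.999 against 1.72, 3.03 and 3.63 CPM. With all 6 libraries it alone of the 16 was without overlap between groups (6.25%, beside 8.33% of all genes). Of 16 early nephron genes, 8 were lower with all 6 libraries and 12 without library 20 (medians -0.00415 and -0.12), and Osr2 was lower in each AkCh library (45.3, 51.5 and 54.96 against 36.3, 41.4 and 39.2 CPM). Osr2 was among 2 early nephron genes without overlap with all 6 libraries (12.5%, beside 8.33% of all genes). The 12 podocyte genes had a median of -0.01 with library 20 and 0.16 without. Nphs1, which encodes nephrin of the slit diaphragm, had 64.9, 68.9 and 56.2 CPM in Wt and 21.7, 83.4 and 66.6 in AkCh, below the Wt range in library 20 alone.

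Proximal tubule genes varied widely between libraries of a group. Summed over 30 genes, levels were 7739, 3867 and 2796 CPM in Wt and 1367, 6394 and 9063 in AkCh. Library 20 was lowest, AkCh 33 and Wt 30 were highest, and the groups overlapped with and without library 20. Lrp2, which encodes the endocytic receptor megalin, had 1061, 531 and 425 CPM in Wt and 178, 972 and 956 in AkCh, and Slc34a1, a phosphate transporter, had 759, 369 and 266 CPM in Wt and 82.3, 582 and 1066 in AkCh. Both were high in Wt 30, AkCh 31 and AkCh 33 and lowest in AkCh 20. All 30 genes were tested: 28 had a positive fold change with all 6 libraries (median log2 0.29, 0 at an unadjusted p under 0.05, 0 without overlap) and 30 without library 20 (median 0.73, 3 at such a p, 3 without overlap). Of all genes in that fit, 11.4% had such a p and 32.8% did not overlap, so these 3 of 30 are below both shares. With all 6 libraries the shares over all genes were 2.28% and 8.33%.

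Further along the tubule, more genes of collecting duct cells were lower than higher in AkCh. All 10 intercalated cell genes had a negative fold change with all 6 libraries (median log2 -0.43), 5 at an unadjusted p under 0.05 and 6 without overlap. Without library 20 these were 9 (median -0.31), 5 and 6. Over all genes, 2.28% had such a p and 4.83% were lower without overlap, and without library 20 these shares were 11.4% and 16.5%. Atp6v1g3, a subunit of the proton pump that acidifies urine, had 20.1, 19.7 and 22.9 CPM in Wt and 16.6, 15.6 and 14.6 in AkCh. Slc4a9, an anion exchanger, had 15.4, 13.8 and 18.46 CPM in Wt and 9.95, 11.4 and 10.96 in AkCh. Foxi1, the regulator of intercalated identity, had 28.3, 27.4 and 33.1 CPM in Wt and 19.6, 25.1 and 23.5 in AkCh. All 3 were lower in each AkCh library than in any Wt library. In AkCk, Atp6v1g3 was at 13.6, 16.1 and 11.01 CPM and Foxi1 at 25.01, 24.2 and 21.96. The log2 fold changes were -0.41 (standard error 0.12), -0.55 (0.15) and -0.38 (0.14), each at an adjusted p of 1.00 (edgeR). Summed, the list had 416, 362 and 388 CPM in Wt and 228, 344 and 381 in AkCh, where the most abundant gene, Car2 (a carbonic anhydrase found in other segments as well), overlapped between the groups.

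Of 12 principal cell genes, 8 were lower with all 6 libraries (3 at an unadjusted p under 0.05, 5 without overlap) and 11 without library 20 (4 and 7). Over all genes, 2.28% had such a p in either direction and 4.83% were lower without overlap. Without library 20 these shares were 11.4% and 16.5%. Elf5, a transcription factor of these cells, had 28.4, 29.99 and 27.99 CPM in Wt and 23.5, 21.1 and 21.2 in AkCh. Aqp3, a water channel of the basolateral membrane, had 69.3, 68.2 and 84.8 CPM in Wt and 48.4, 64.04 and 59.02 in AkCh. Both were lower in each AkCh library. Aqp2, the water channel regulated by vasopressin, had 183, 203 and 269 CPM in Wt and 216, 149 and 150.1 in AkCh, lower in 31 and 33 and within the Wt range in 20. Aqp2, Krt8 and Krt18 of this list and Aqp6 of the intercalated cell list lie within 10 Mb of Hoxc10. For these genes, linked strain alleles and the targeted alleles cannot be told apart. Of 10 distal and connecting tubule genes, 6 were lower with all 6 libraries and 3 without library 20 (medians -0.02 and 0.20), so that most were higher in the second fit. Kl, the klotho co-receptor for FGF23, had 194, 102 and 108 CPM in Wt and 44.7, 215 and 300.3 in AkCh. Slc12a3, the thiazide-sensitive sodium chloride transporter, had 96.9, 41.2 and 45.2 CPM in Wt and 22.4, 104 and 98.7 in AkCh. Both were lowest in library 20 and above all Wt libraries in 31 and 33. S100g, a calcium-binding protein, had 179.9, 254 and 296 CPM in Wt and 171, 152 and 137 in AkCh. Klk1, a kallikrein, had 48.2, 50.8 and 80.3 CPM in Wt and 36.005, 33.3 and 41.6 in AkCh. Both were lower in every AkCh library. The 10 loop of Henle genes had medians of -0.06 and 0.06, with 0 and 0 at an unadjusted p under 0.05.

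**Figure D5:**
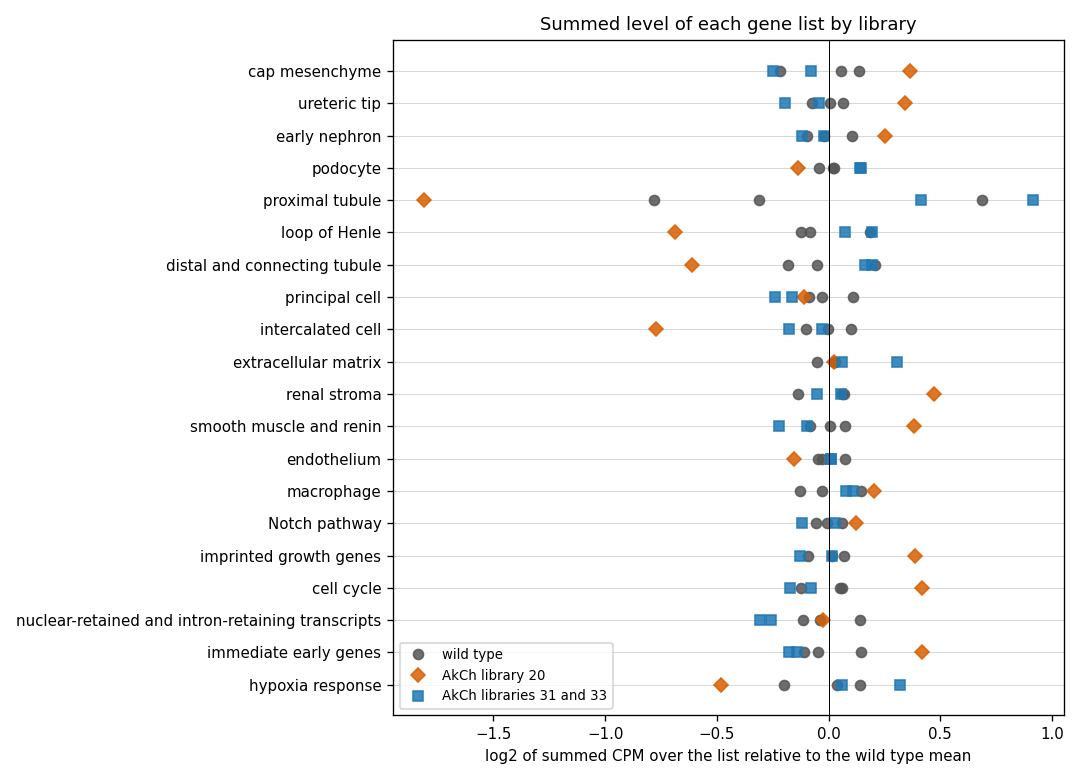
Summed CPM of each gene list in each library, as log2 relative to the mean of the Wt libraries (horizontal axis), for 20 lists (vertical axis); circles are Wt, squares AkCh 31 and 33, the diamond AkCh 20. Library 20 is lowest for the proximal tubule list (1367 CPM) and highest for the cap mesenchyme list (2113 CPM).

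Dlk1, a Notch ligand-like protein of progenitor cells that is imprinted, had 39.1, 43.96 and 40.4 CPM in Wt and 216, 75.1 and 53.96 in AkCh. All 3 AkCh libraries were above all Wt libraries, library 20 by far the most, and AkCk had 432, 449 and 299.6 CPM. The log2 fold change was 1.49 (standard error 0.52) with all 6 libraries and 0.64 (0.14) without library 20, at adjusted p of 1.00 and 0.431 (edgeR), and it passed in 1 of 19 alternative settings (0.00605 to 1.00). Dlk1 was also picked by the study from these data. Of 22 Notch pathway genes, it was the only one at an unadjusted p under 0.05 with all 6 libraries (2.28% of all genes); 15 of 22 were lower, and the receptor gene Notch1 had 129.9, 137 and 140.5 CPM in Wt and 85.9, 142 and 123 in AkCh. Notch1 overlapped between groups, while 3 of the 22 were lower without overlap (4.83% of all genes) and Dlk1 alone was higher so (3.5%). Of 20 imprinted growth genes, 15 were higher with library 20 and 9 without it (medians 0.19 and -0.06). Meg3, the maternally expressed RNA of the Dlk1 locus, had 8.21, 7.61 and 10.4 CPM in Wt and 9.60, 6.80 and 7.32 in AkCh, and overlapped.

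Nuclear-retained and intron-retaining transcripts, a list that bears on RNA quality, were lower in AkCh. All 16 had a negative fold change in both fits, with a median log2 of -0.40 with all 6 libraries and -0.52 without library 20. Of them 6 and then 13 had an unadjusted p under 0.05, and 9 and then 15 did not overlap; 0 were called. The shares of all genes were likewise larger in the second fit, 2.28% and then 11.4% for such a p and 8.33% and then 32.8% without overlap. Most members were listed by the study as lower in its mutant libraries, so the direction of the list is not independent evidence. Ccnl1, a cyclin tied to splicing, had 47.1, 50.9 and 55.9 CPM in Wt and 42.3, 34.1 and 37.6 in AkCh. Clk1, a kinase of splicing factors, had 54.7, 55.1 and 71.6 CPM in Wt and 48.8, 37.2 and 41.98 in AkCh. The nuclear RNA Malat1 had 106, 99.6 and 119 CPM in Wt and 95.7, 47.8 and 83.6 in AkCh. Each was lower in every AkCh library than in every Wt library, less so in library 20, and Ccnl1 was lower still in AkCk at 18.3, 16.6 and 16.7 CPM. The list, led by Ddx5, summed to 1984, 2090.0 and 2371 CPM in Wt and 2113, 1735 and 1798 in AkCh. Library 20 was within the Wt range of this sum and AkCh 31 and 33 were below it, and the list's part in the other results was not tested. Of 20 cell cycle genes, 15 were higher with all 6 libraries and 18 lower without library 20 (medians 0.09 and -0.16); Mki67, a proliferation marker, had 275, 277 and 316 CPM in Wt and 366, 251 and 229 in AkCh, again highest in library 20. The 10 immediate early genes had medians of -0.01 and -0.22 and the 10 hypoxia genes -0.01 and 0.11.

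Among endothelial, macrophage and mast cell lists, no gene was called in either fit (edgeR). An unadjusted p under 0.05 was found for 2.28% of all genes with 6 libraries and 11.4% without library 20. Lyve1, the hyaluronan receptor of lymphatic endothelium, had 15.8, 9.83 and 8.74 CPM in Wt and 18.4, 26.9 and 25.02 in AkCh, higher in each AkCh library (adjusted p = 1.00, edgeR, log2 1.04, standard error 0.27). It was the only one of 12 endothelial genes at an unadjusted p under 0.05 in either fit. Of 12 macrophage genes, Mrc1 (the mannose receptor) was the only one so with all 6 libraries, at 23.5, 22.6 and 20.9 CPM in Wt and 30.04, 28.7 and 25.8 in AkCh. The macrophage list, led by Stab1, summed to 186, 165 and 154 CPM in Wt and 194, 177 and 181 in AkCh, and the endothelial list, led by Cdh5, to 1213, 1318 and 1226 and 1124, 1261 and 1261, with overlap in both. Mast cell genes were low in Wt: Cma1, a chymase, had 10, 12 and 14 counts in Wt and 18, 85 and 131 in AkCh, a ratio of 7.49 (95% counting interval 5.25 to 10.9), and 1.67% of its windows are shared. Cpa3, a carboxypeptidase, had 0.715, 0.832 and 0.594 CPM in Wt and 1.03, 1.86 and 2.87 in AkCh. Both were higher in each AkCh library, least in 20, and in AkCk Cma1 was at 8.60, 8.30 and 7.30 CPM. The adjusted p of Cma1 was 1.00 with all 6 libraries and 0.0517 without library 20 (edgeR). Of the 5 mast cell genes 4 were tested, and the list summed to 44.6, 45.8 and 46.4 CPM in Wt and 46.6, 48.1 and 47.4 in AkCh, of which Kit, a receptor that other cells express too, was 43.2, 43.8 and 44.9 and 44.3, 42.1 and 38.9. Mcpt4 was at 0 in all Wt libraries.

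Among markers of other tissues, those of liver were higher in AkCh, and erythroid genes and Fabp4 were highest in library 20. Liver genes (9 of 10 tested, most abundant Afp) summed to 83.1, 93.1 and 53.9 CPM in Wt and 98.8, 117 and 152 in AkCh, so that each AkCh library was above each Wt library. With all 6 libraries 9 of 9 were higher, 5 at an unadjusted p under 0.05, and without library 20, 7 of 9 were higher, 4 at such a p, beside 2.28% and 11.4% of all genes. None was called (edgeR). Alb, serum albumin, had 1.09, 0.671 and 0.866 CPM in Wt and 21.2, 16.5 and 0.369 in AkCh, high in 20 and 31 alone. Skeletal muscle genes (7 of 10 tested, most abundant Actn3) summed to 8.13, 8.16 and 15.1 CPM in Wt and 20.7, 4.94 and 4.61 in AkCh, with Myod1 at 0 in Wt 30 and 37 and AkCh 20 and 31. Actn3 had 3.73, 3.82 and 5.52 CPM in Wt, 11.8, 0.339 and 0.448 in AkCh and 6.55, 12.1 and 6.97 in AkCk. Among the Wt and AkCh libraries, Actn3 was thus low in AkCh 31 and 33 and highest in 20. It fell without library 20 (log2 -3.47, standard error 0.31, adjusted p = 0.0311, edgeR), where it passed in 11 of 18 alternative settings (1.00e-15 to 1.00). Erythroid genes (7 of 11 found, 6 tested, most abundant Hba-a1) summed to 540.0, 1304 and 1365 CPM in Wt and 1989, 560.0 and 767 in AkCh, highest in library 20. Fabp4, the only one of 6 adipose genes tested and one that endothelium expresses too, had 255, 294 and 303 CPM in Wt and 524, 237 and 252 in AkCh, again highest in library 20, while Lep was at 0 in all 6. Adrenal cortex genes (4 of 7 tested, most abundant Star) summed to at most 13.3 CPM, in library 20, with Cyp11b1 at 0 in all AkCh libraries, and adrenal medulla genes (2 of 6 tested, most abundant Pnmt) to at most 3.21. Gonad genes (3 of 7 tested, most abundant Inha, Foxl2 at 0 in all 6) summed to 2.52, 4.37 and 4.83 CPM in Wt and 4.17, 2.93 and 2.69 in AkCh, with overlap. The 7 urothelium genes (most abundant Upk3a) summed to 52.1, 72.4 and 65.7 CPM in Wt and 83.6, 60.2 and 46.6 in AkCh, with overlap. The part of these markers in the other results was not tested.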

How the data were processed

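RNA of E18.5 whole kidneys was extracted and sequenced by the authors, who aligned reads to mm10 (submitters' processing notes), dropped multi-mapping reads, and deposited an expected count per gene and a log2 value centred on the median of the 12 libraries. The expected counts of 36186 genes were rounded here. Those that passed filterByExpr (minimum count 10, minimum total 15) were tested with edgeR 4.0.16 in R 4.3.3. These were 15789 genes with all 6 libraries and 15967 without library 20. The settings were TMM, quasi-likelihood test, Benjamini-Hochberg adjustment over all genes tested and threshold 0.05. CPM used TMM factors of all 12 libraries. Standard errors are the log2 fold change over the root of F. The test was tried on simulated data. Genes named are those of 35 lists and, by rule, the 10 higher and 10 lower of smallest p without overlap and at a mean of at least 1 CPM in each fit, and the 10 furthest apart each way between library 20 and the other AkCh libraries (at least 10 CPM). The Gimap genes and Ano2 lie outside this rule and were named after their values were seen. Members and lists were chosen with earlier results of these data known. Some results, 1 list among them, are not reported here. Positions came from RefSeq GRCm38.p6 by Entrez identifier (33006 genes), transcript lengths from GENCODE. Of 92 symbols listed more than once, the entry with most reads was kept. Alternatives were RLE factors, library size, DESeq2 1.42.0, filters, 9 or 12 libraries, a robust fit, limma 3.58.1 (voom weights, deposited log2 values), Audic-Claverie, Xist as a covariate and each library left out. Figures used matplotlib 3.10.9.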

Additional observations from a re-analysis of the deposited data

How the results depend on the processing

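With all 6 libraries, the count of 0 called genes (360 at an unadjusted p under 0.05, edgeR) stayed 0 with RLE factors, library size only, either other filter, the 9 libraries of the run and the robust fit. It became 2 with all 12 libraries (Ogg1 and Gm6682), 22 with DESeq2, 29 with limma voom weights, 1 with limma on log2 values as deposited, 192 by the Audic-Claverie test and 4790 (2532 higher, 2258 lower) with Xist as a covariate, where library 20 is the only AkCh library low in Xist. Leaving out each library gave 0 to 8, the 8 without library 20. Without library 20, the count of 8 became 132 with DESeq2 (54 higher, 78 lower), 15 with every gene of at least 1 count, 4 with the CPM filter, 4 with 9 libraries (Actn3, Cma1, Mpp4 and Ogg1), 4 with 12 (Actn3, Cma1, Gm6682 and Ogg1), 14 with the robust fit, 1286 with voom weights (914 higher, 372 lower) and 0 with Xist as a covariate. With 9 or 12 libraries, 1 of the 8 genes, Actn3, was still called. The count stayed close with RLE factors (11), library size (10) and the deposited log2 values (9). Leaving out each remaining library gave 7 to 2787, the highest without Wt 30. Where 1 AkCh library was left, it is assumed to vary like Wt. Chosen after seeing the data, a correction for transcript length and GC content gave 0 and 14 called genes, and the Xist covariate in a fit of all 12 libraries gave 0 and 0. Causes were not tested. No scaling moved the median of all genes by more than 0.1.

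For single genes with 6 libraries, 7195 of 8119 values over 429 genes kept their sign and 924 changed it, among them 151 of 429 when library 20 was left out and 121 of 429 with Xist as a covariate. The sign changed to the other side with a call in 25, all with Xist as a covariate (log2): Magi2 -0.60, Npnt -1.77, Lrp2 -1.72, Cubn -1.72, Slc34a1 -2.24, Slc22a13 -1.35, Slc6a19 -2.41, Fbp1 -2.95, Slc27a2 -2.13, Cldn2 -2.61, Pdzk1 -1.44, Kl -1.38, Thbs2 -0.50, Dkk1 0.54, Myocd -0.91, Mgp 0.42, Peg3 -0.81, Gas5 0.56, Bnip3 -0.65, Actn3 1.10, Cyp11a1 -5.50, Kdm6a -0.55, Ugt1a2 -3.16, Mgat5 -3.62 and Clcn5 -3.00. Without library 20, 5154 of 5562 values over 431 genes kept their sign, 408 changed it (250 with Xist as a covariate), and 27 values of called genes with an unchanged sign fell short of the threshold. The sign changed, and the call was lost, for AB099516 -3.56, Actn3 0.37 and Xist -0.37 with Xist as a covariate, and Ddx3y 0.46, Kdm5d 1.93 and Uty 0.25 in that fit of 12 libraries. The last tally does not hold the fits without library 20 and 1 more library, where Actn3 lost its call without AkCh 31, AkCh 33 or Wt 37 and AB099516 without AkCh 33. No paired analysis was possible because the groups share no replicate numbers.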
